A study of Mus musculus with 24 samples.

Results

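Expression of extracellular matrix and stellate cell genes was described in the liver of 24 mice, with 1 array per mouse. The genes are 38 symbols fixed by name and matched exactly to the gene name of each probe in the scanner output: collagens, fibronectin and matricellular proteins, small proteoglycans, matrix proteases with their inhibitors, cross-linking enzymes, filament and contractile proteins, ligands and receptors, and stellate cell markers. They were held by 77 of 56605 probes, and 52 of these were among the 30003 probes bright enough to be tested. A gene was read from its brightest tested probe, which gave 34 of the 38 genes and 16760 gene names in all. No tested probe was left for Col5a2, Col15a1, Lox or Thbs1, whose best probe was well above background on 2, 6, 5 and 7 of 24 arrays.

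All mice were male C57Bl6J mice of the third generation of supplemented lineages, and all were killed while fasting. The reference group (n = 9) came from the control fatty acid lineage, whose earlier generations had received a high-oleic sunflower oil, and was fed a low-fat diet. The HFoleic group (n = 8) came from the same lineage and was fed an obesogenic diet rich in fat and sucrose. The HFepa group (n = 7) was fed this obesogenic diet and came from the lineage that had received fish oil rich in eicosapentaenoic acid (EPA). No array here came from EPA-lineage mice on the low-fat diet, so in HFepa minus reference the diet and the lineage cannot be told apart.

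Hepatic stellate cells lie between the hepatocytes and the sinusoids and store retinyl esters. When the liver is injured they turn into contractile cells that secrete collagens, and the balance of matrix secretion, cross-linking and proteolysis then sets how much scar forms. The collagen triple helix needs glycine at regular steps along the chain, prolyl hydroxylation in the endoplasmic reticulum, and cross-links made outside the cell by lysyl oxidases. In bulk tissue, fewer cells of a type and less RNA per cell cannot be told apart.

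The arrays had 28804 to 34432 probes well above background (50.9% to 60.8%), median signals of 59.5 to 89.0 and 0 saturated spots, and lay on 3 slides that each held mice of the 3 groups. The hepatocyte markers Alb, Ttr, Apoa1, Cps1 and Tat were read on all arrays, and 11 of 12 stellate cell markers were read. Gfap, a filament protein of quiescent stellate cells, was well above background on 5 of 24 arrays and was not read.

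The livers labelled reference replicate 5, reference replicate 4 and HFepa replicate 4 stood apart on the high side for the matrix genes. Reference replicate 5 was the highest of the 9 reference livers for 27 of 34 genes, against 22.3% of all gene names, and exceeded the mean of the other reference livers by a median of 1.43 log2 units. This liver stood apart beyond the matrix genes too. It was the lowest of the 9 for 24.8% of all gene names, and its mean correlation with its own group, 0.977, was the lowest of the 24 arrays. Reference replicate 4 exceeded the other reference livers by a median of 0.50. HFepa replicate 4 was the highest of the 7 HFepa livers for 19 of 34 genes, against 20.6% of all gene names, with a median of 0.29 above the others. The mean level of 4 bile duct markers in reference replicate 5 was 7.53, against 6.24 to 6.76 in the 21 livers other than these 3. That of 7 smooth muscle and portal fibroblast markers was 7.97, and 8.14 in reference replicate 4, against 7.09 to 7.64. The stellate cell markers gave 10.38 in reference replicate 5 against 9.87 to 10.34, and the hepatocyte markers 16.15 against 15.64 to 16.23. The 5 mesothelial markers were not read on these arrays. The part of these cell types in the matrix values of the 3 livers was not tested. Other livers were low. HFoleic replicate 1 was the lowest of its group for 17 of 34 genes, against 14.5% of all gene names, with a median of -0.32 from the others. Reference replicate 2 was the lowest of its group for 15 of 34, against 11.4%, with a median of -0.53. Neither low liver was left out of the co-variation below.

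HFoleic minus reference asked what the obesogenic diet changed in the control lineage. Of the 34 genes read, 2 rose and 2 fell: Lrat and Fn1 were higher, and Timp3 and Mmp14 were lower, in HFoleic livers. These were 5 of 52 probes called, 9.62%, where limma called 7.23% of all tested probes at an adjusted p under 0.05. By gene name, 4 of 34 (11.8%) stood against 8.91% of all gene names, so the shares lay near the background. The median log2 difference of the 34 genes was -0.19, against 0.00 over all gene names, with 24 genes below 0 and 10 above. Without reference replicate 5 that median was -0.02, with 19 below and 15 above, and the difference of 24 of the 34 genes moved by more than 1.5 times or changed sign.

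Lrat encodes the acyltransferase that esterifies retinol for storage and is used as a stellate cell marker. Its probe lies at chr3:82696805-82696864 (minus strand, build mm9). The log2 signal had its lowest, median and highest values at 6.98, 7.19 and 7.57 in reference livers, 7.43, 7.84 and 7.95 in HFoleic livers, and 7.21, 7.49 and 7.96 in HFepa livers. The HFoleic livers overlapped the reference range with 1 liver, and 7 of 8 lay above every reference liver. The mean was 7.25 ± 0.19 (SD, n = 9) in the reference and 7.81 ± 0.16 (SD, n = 8) in HFoleic, a difference of 0.56 (SE 0.10; 1.47-fold; limma adjusted p = 0.00150). The difference was 0.53, 0.57 and 0.58 within slides 1, 2 and 3, and 0.57 without reference replicate 5. It was called in all 38 alternatives run. In the list of 11 stellate cell markers read, Lrat was the 1 marker called, and the summary level of that list overlapped between the groups (9.89 to 10.38 in reference, 9.87 to 10.34 in HFoleic).

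Fn1 encodes fibronectin, a matrix glycoprotein that hepatocytes also secrete into plasma. At chr1:71632116-71632175 (minus strand, mm9) the log2 signal ran from 15.52 through a median of 15.65 to 15.80 in reference livers, from 15.76 through 15.88 to 16.11 in HFoleic, and from 15.71 through 15.80 to 15.97 in HFepa. Of the 8 HFoleic livers, 6 lay above every reference liver, and the ranges met at 15.76 to 15.80. The difference was 0.28 (SE 0.06; 1.21-fold; limma adjusted p = 0.00463), the smallest in size among the 4 called genes. The other 3 Fn1 probes differed by 0.13, 0.21 and -0.09 and were not called. The call was lost with the mean over the 4 probes (0.13, limma adjusted p = 0.322), with the processed signal (0.22, adjusted p = 0.110) and with median scaling (0.23, adjusted p = 0.0868).

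Timp3 encodes a metalloprotease inhibitor that binds to the matrix. At chr10:85812041-85812100 (plus strand, mm9) the log2 signal ran from 9.96 through a median of 10.56 to 11.64 in reference livers, from 9.76 through 10.02 to 10.32 in HFoleic, and from 10.04 through 10.44 to 10.48 in HFepa. All 8 HFoleic livers lay below the reference mean of 10.67 ± 0.58 (SD, n = 9), and 3 lay below every reference liver. Reference replicates 4 (11.64) and 5 (11.61) raised that mean, and the other reference livers lay at 9.96 to 10.63. No fit left out both of these livers. The difference was -0.63 (SE 0.18; 0.646-fold; limma adjusted p = 0.0274), and a neighbouring Timp3 probe gave -0.59 (adjusted p = 0.0308). Within slides 1, 2 and 3 it was -0.98, -0.41 and -0.52, and without reference replicate 5 it was -0.51 (limma adjusted p = 0.0408). The call was lost without HFoleic replicate 1 (-0.59, limma adjusted p = 0.0576) and without HFoleic replicate 8 (-0.61, adjusted p = 0.0518).

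Mmp14 encodes a membrane-bound metalloprotease that cleaves fibrillar collagen and activates pro-Mmp2. At chr14:55058775-55058834 (plus strand, mm9) the log2 signal ran from 7.47 through a median of 7.71 to 8.21 in reference livers, from 7.22 through 7.49 to 7.61 in HFoleic, and from 7.38 through 7.61 to 7.85 in HFepa. The HFoleic range overlapped the reference range, and 4 of 8 HFoleic livers lay below every reference liver. The difference was -0.30 (SE 0.09; 0.809-fold; limma adjusted p = 0.0429). This call was lost in 16 of 38 alternatives, among them without reference replicate 5 (-0.25, limma adjusted p = 0.0694). It was also lost without each of reference replicates 1, 6, 7 and 9, HFoleic replicates 1, 3, 4, 6 and 8 and HFepa replicate 3 (limma adjusted p from 0.0501 to 0.0957). Within slides 1, 2 and 3 the difference was -0.42, -0.40 and -0.13. Some markers of other cells fell in the same comparison. These were the hepatocyte markers Cps1 (-0.89, limma adjusted p = 0.00166) and Tat (-0.63, adjusted p = 0.00858) and the bile duct marker Sox9 (-0.65, adjusted p = 0.0279). The other hepatocyte markers Alb (-0.002), Ttr (0.12) and Apoa1 (-0.10) were not called. The bile duct list spanned 6.34 to 7.53 in reference and 6.24 to 6.52 in HFoleic livers, and the hepatocyte list 15.86 to 16.23 and 15.64 to 15.95. Of 73 marker genes of 11 cell types or tissues, 58 were read. Cps1, Tat, Sox9 and Lrat were the ones called in HFoleic minus reference (6.90%, against 8.91% of all gene names). The part of these cells in the 4 calls was not tested.

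**Figure D1:**
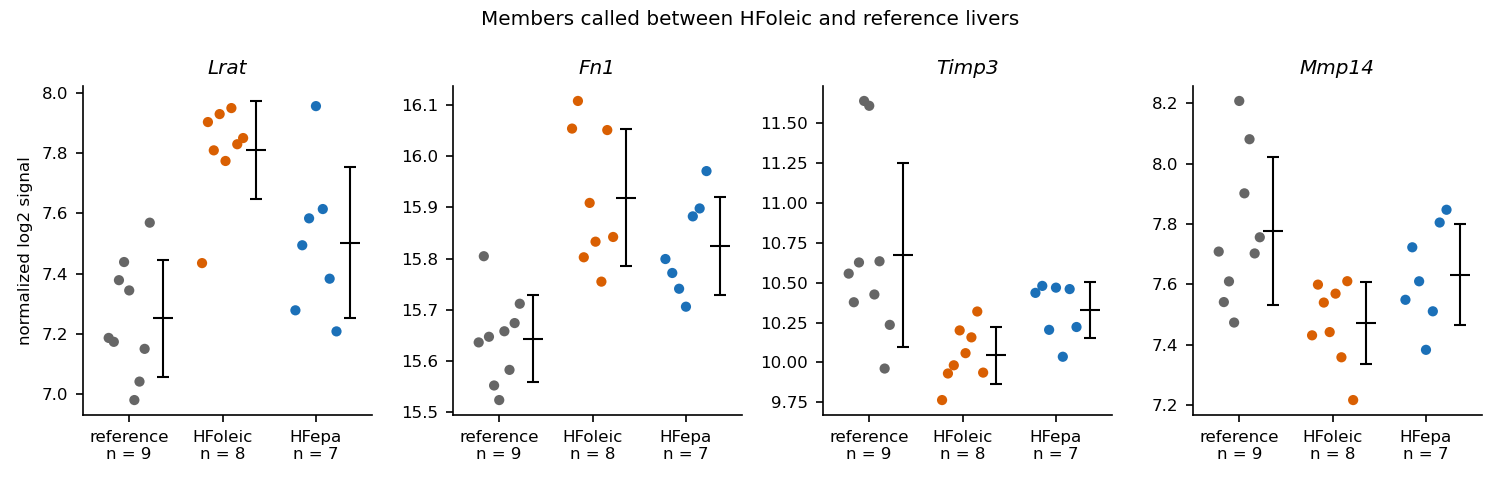
Normalized log2 signal (y axis) of Lrat, Fn1, Timp3 and Mmp14 in each liver of the reference (n = 9), HFoleic (n = 8) and HFepa (n = 7) groups. Points are livers and the bar beside them is the mean with SD. Of the 8 HFoleic livers, 7 lie above all reference livers for Lrat and 6 for Fn1, whereas 3 lie below all of them for Timp3 and 4 for Mmp14, and HFepa livers overlap both groups.

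The 250 bases before the transcription start are shown for the called genes with an entry in the RefSeq promoter table (GRCm38.p6) and for Col1a2 and Col3a1, fibrillar collagens that moved together from mouse to mouse. Capitals mark the GC box GGGCGG, the CCAAT box CCAAT and the TATA box TATAAA, searched on both strands. Lrat lies at chr3:82903975-82904224 (minus), Timp3 at chr10:86300162-86300411 (plus), Mmp14 at chr14:54431348-54431597 (plus), Col1a2 at chr6:4505368-4505617 (plus) and Col3a1 at chr1:45311288-45311537 (plus).
Lrat: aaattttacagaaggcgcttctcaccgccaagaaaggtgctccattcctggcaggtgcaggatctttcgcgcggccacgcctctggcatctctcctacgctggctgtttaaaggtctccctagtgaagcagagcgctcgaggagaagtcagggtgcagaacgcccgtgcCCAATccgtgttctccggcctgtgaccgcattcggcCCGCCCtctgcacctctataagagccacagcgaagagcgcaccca
Timp3: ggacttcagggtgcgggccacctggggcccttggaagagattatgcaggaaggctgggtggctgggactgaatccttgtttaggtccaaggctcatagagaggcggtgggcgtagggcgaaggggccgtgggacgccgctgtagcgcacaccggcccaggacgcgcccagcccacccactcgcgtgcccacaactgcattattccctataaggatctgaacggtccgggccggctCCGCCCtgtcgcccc
Mmp14: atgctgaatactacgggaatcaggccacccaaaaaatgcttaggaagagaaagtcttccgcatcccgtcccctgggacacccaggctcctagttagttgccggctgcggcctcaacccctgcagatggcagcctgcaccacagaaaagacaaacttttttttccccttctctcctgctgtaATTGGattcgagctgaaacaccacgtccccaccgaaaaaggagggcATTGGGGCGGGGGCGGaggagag
Col1a2: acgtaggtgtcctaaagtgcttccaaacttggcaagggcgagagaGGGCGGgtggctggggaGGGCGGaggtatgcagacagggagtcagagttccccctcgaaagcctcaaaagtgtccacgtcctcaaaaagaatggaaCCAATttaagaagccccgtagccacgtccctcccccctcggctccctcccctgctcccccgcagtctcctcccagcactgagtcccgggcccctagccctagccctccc
Col3a1: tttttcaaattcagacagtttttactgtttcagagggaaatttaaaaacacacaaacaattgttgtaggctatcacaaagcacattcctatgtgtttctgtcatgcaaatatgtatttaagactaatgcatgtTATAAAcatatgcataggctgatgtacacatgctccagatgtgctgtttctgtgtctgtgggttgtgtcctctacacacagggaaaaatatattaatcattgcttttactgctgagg
In Mmp14 a CCAAT box on the other strand (bases 23 to 19 before the start) and a GC box (19 to 14) share 1 base. The GC box was in 32.7% of 32851 promoters and in 14 of the 23 genes read that had an entry. The CCAAT box was in 33.8% and 10 of 23, and the TATA box in 12.4% and 3 of 23. Col1a2 held 2 GC boxes and a CCAAT box, whereas Col3a1 held a TATA box 117 bases before the start and no GC box. A match of letters is a description and not a binding site.

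Fibrillar collagens form the banded fibres of scar, and none of the 4 read was called. Col1a1, the first chain of type I collagen, is at chr11:94813115-94813174 (plus strand, mm9). Its log2 signal ran from 6.30 through a median of 6.92 to 11.18 in reference livers, from 6.54 through 7.14 to 7.47 in HFoleic, and from 6.48 through 6.68 to 8.55 in HFepa. The reference range thus enclosed the HFoleic and HFepa ranges. The HFoleic mean was 0.47 lower (95% interval -1.45 to 0.51; limma adjusted p = 0.632), and the median of the HFoleic livers was the higher. Without reference replicate 5 the difference was -0.02.

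Col1a2, the second chain of type I collagen (chr6:4490619-4490678, plus strand, mm9), ran from 8.81 through 9.33 to 12.72 in reference livers, from 8.74 through 9.38 to 9.62 in HFoleic and from 9.08 through 9.33 to 10.63 in HFepa. Its HFoleic minus reference difference of -0.49 (95% interval -1.27 to 0.29; limma adjusted p = 0.502) became -0.13 without reference replicate 5. Col3a1, the chain of type III collagen (chr1:45405589-45405648, plus strand, mm9), ran from 8.05 through 8.75 to 12.41, from 8.84 through 9.25 to 9.54 and from 8.56 through 8.66 to 10.28. Its difference was 0.00 (95% interval -0.84 to 0.84; limma adjusted p = 0.997) and became 0.40 without reference replicate 5. In these 3 genes reference replicate 5 was the highest liver and reference replicate 4 the next reference liver, and HFepa replicate 4 was the highest HFepa liver. Col5a1, a minor chain that sets fibre width, differed by -0.04.

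**Figure D2:**
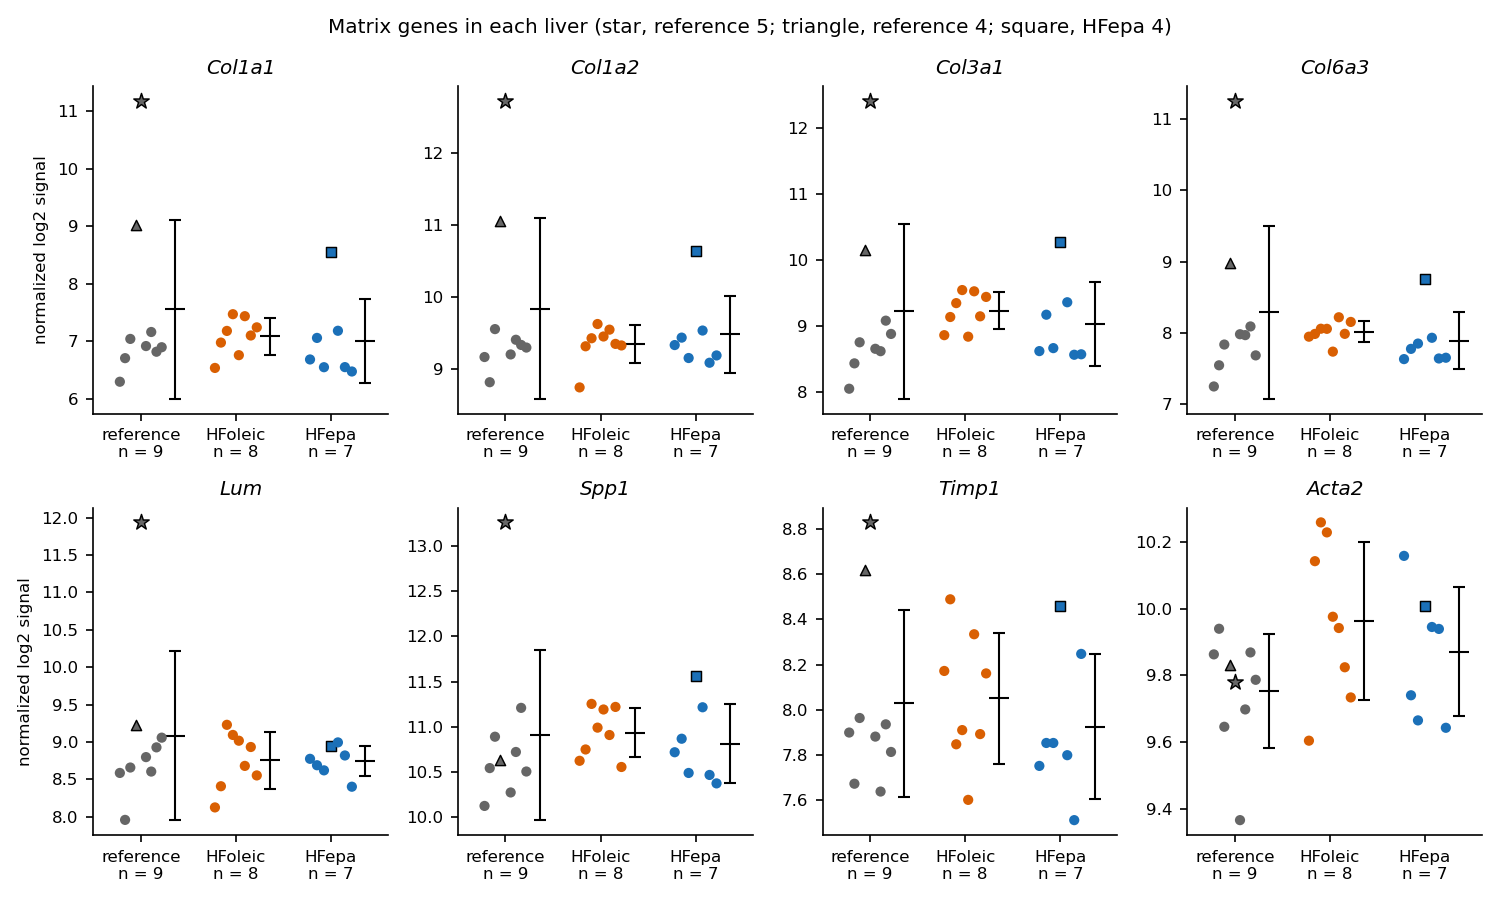
Normalized log2 signal (y axis) of 8 matrix and contractile genes in each liver of the 3 groups. Points are livers, the bar is the mean with SD, and star, triangle and square mark reference replicate 5, reference replicate 4 and HFepa replicate 4. For Col1a1 the star lies at 11.18 while the other reference livers lie between 6.30 and 9.02, whereas the brightest Acta2 probe shows no such separation. The second tested Acta2 probe is not shown. Its HFoleic minus reference difference had an SE of 0.36, against 0.10 for the probe shown.

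Of the 8 other collagens, 7 were read and none was called, with differences from -0.43 to 0.14. The type IV chains Col4a1 (-0.23) and Col4a2 (-0.22) form the network of basement membranes. The type VI chains Col6a1 (-0.43), Col6a2 (-0.26) and Col6a3 (-0.27) form beaded filaments. Col6a1 had the largest difference, with 8.47, 9.06 and 11.51 as lowest, median and highest in reference livers, 8.64, 9.04 and 9.16 in HFoleic and 8.70, 9.01 and 9.50 in HFepa. The HFoleic range lay inside the reference range, and the 95% interval of the difference was -1.02 to 0.17 (limma adjusted p = 0.427). Without reference replicate 5 the difference was -0.17. Col14a1, a collagen on the surface of fibrils, differed by 0.14 and Col18a1, the source of endostatin, by 0.13, and Col18a1 was above the reference mean in 7 of 8 HFoleic livers (limma adjusted p = 0.194).

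A second Col6a3 probe (chr1:92689602-92690594 in mm9, minus strand) lies in the part that encodes the helix and is shown for the repeat that defines a collagen. Capitals mark triplets GGN, the codons of glycine, of which a script found 6 at a spacing of 9 bases in the 60 bases of the probe.
Col6a3: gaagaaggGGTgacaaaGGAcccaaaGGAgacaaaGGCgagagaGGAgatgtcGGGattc
This probe was well above background on 17 of 24 arrays and its HFoleic minus reference difference was -0.01, against -0.27 for the probe by which Col6a3 was read. The other tested Col6a3 probe, well above background on 10 of 24 arrays, differed by -0.25 (limma adjusted p = 0.0845) and was called with the processed signal (-0.79, adjusted p = 0.0195).

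The other matricellular genes were Sparc, a collagen-binding glycoprotein, with a difference of -0.08, and Spp1, which encodes osteopontin and is made by bile duct cells, macrophages and activated stellate cells. The log2 signal of Spp1 ran from 10.13 through 10.63 to 13.26 in reference livers, from 10.56 through 10.95 to 11.25 in HFoleic and from 10.38 through 10.72 to 11.56 in HFepa. The groups overlapped, and the difference was 0.03 (95% interval -0.57 to 0.63; limma adjusted p = 0.970). The small leucine-rich proteoglycans Dcn, Lum and Bgn bind collagen fibrils. They differed by -0.09, -0.33 and -0.17, and none was called. Lum ran from 7.96 through 8.80 to 11.94 in reference livers, from 8.12 through 8.80 to 9.23 in HFoleic and from 8.40 through 8.77 to 8.99 in HFepa, and only reference replicate 5 lay above 9.23 (limma adjusted p = 0.635).

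Among the protease inhibitors, Timp1, a soluble inhibitor induced in fibrotic liver, ran from 7.64 through 7.90 to 8.83 in reference livers, from 7.60 through 8.03 to 8.49 in HFoleic and from 7.51 through 7.85 to 8.46 in HFepa. The 3 ranges overlapped, with a difference of 0.02 (95% interval -0.31 to 0.35; limma adjusted p = 0.959). Timp2, which binds Mmp14 and Mmp2, differed by -0.42 (limma adjusted p = 0.313) and was below the reference mean in 8 of 8 HFoleic livers. Reference replicate 5 stood at 12.80, against a mean of 10.75 for the other reference livers, and without it the Timp2 difference was -0.19. Mmp2, a gelatinase, was well above background on 18 of 24 arrays, had values in 22 mice, and differed by 0.27 (95% interval -0.48 to 1.01), and by 0.54 without reference replicate 5. Of the lysyl oxidase family, Loxl1 ran from 6.06 through 6.64 to 9.05 in reference livers, from 6.15 through 6.56 to 6.64 in HFoleic and from 6.27 through 6.46 to 7.12 in HFepa. Its difference of -0.46 (95% interval -1.03 to 0.11) and that of Loxl2 of -0.14 were not called, and without reference replicate 5 they were -0.19 and -0.09.

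Acta2, smooth muscle actin and the usual sign of stellate cell activation, ran from 9.37 through 9.79 to 9.94 in reference livers, from 9.60 through 9.96 to 10.26 in HFoleic and from 9.64 through 9.94 to 10.16 in HFepa. Of the HFoleic livers, 5 of 8 lay above every reference liver, and the difference was 0.21 (95% interval 0.01 to 0.41; limma adjusted p = 0.200). Its second tested probe gave -0.58 (limma adjusted p = 0.371), so the Acta2 probes disagreed in sign. Vim, a filament protein of mesenchymal cells, ran from 9.55 through 10.07 to 12.05 in reference livers, from 9.46 through 9.87 to 10.16 in HFoleic and from 9.50 to 10.69 in HFepa, with a difference of -0.40 (limma adjusted p = 0.381), which was -0.18 without reference replicate 5. Tagln, an actin-binding protein of contractile cells, differed by -0.31, and Des, the muscle-type filament of stellate cells, by -0.14.

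Among ligands and receptors, Ctgf, a matricellular effector of transforming growth factor beta (chr10:24318281-24318340, plus strand, mm9), had the largest difference of the whole set. It ran from 8.26 through 9.21 to 10.52 in reference livers, from 8.06 through 8.54 to 8.93 in HFoleic and from 8.64 through 9.37 to 9.98 in HFepa. All 8 HFoleic livers were below the reference mean and 1 was below every reference liver. The difference of -0.78 (SE 0.27; limma adjusted p = 0.0751) was not called with all mice, and was called without reference replicate 8 (-0.92, limma adjusted p = 0.0215) or reference replicate 9 (-0.90, adjusted p = 0.0380). Without reference replicate 5 it was -0.63 (limma adjusted p = 0.127). Reference replicates 4 and 5 were the highest, at 10.42 and 10.52, against 8.26 to 9.74 in the other reference livers, and no fit left out both. Tgfb1, the profibrotic cytokine, differed by -0.06. The receptors for platelet-derived growth factor, Pdgfra and Pdgfrb, differed by -0.35 and -0.29, and by -0.15 and -0.03 without reference replicate 5. Reln, a secreted glycoprotein of quiescent stellate cells, differed by 0.10. One further Reln probe was called without reference replicate 5 (0.30, limma adjusted p = 0.0277) and had differed by 0.17 (adjusted p = 0.514) with all mice.

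**Figure D3:**
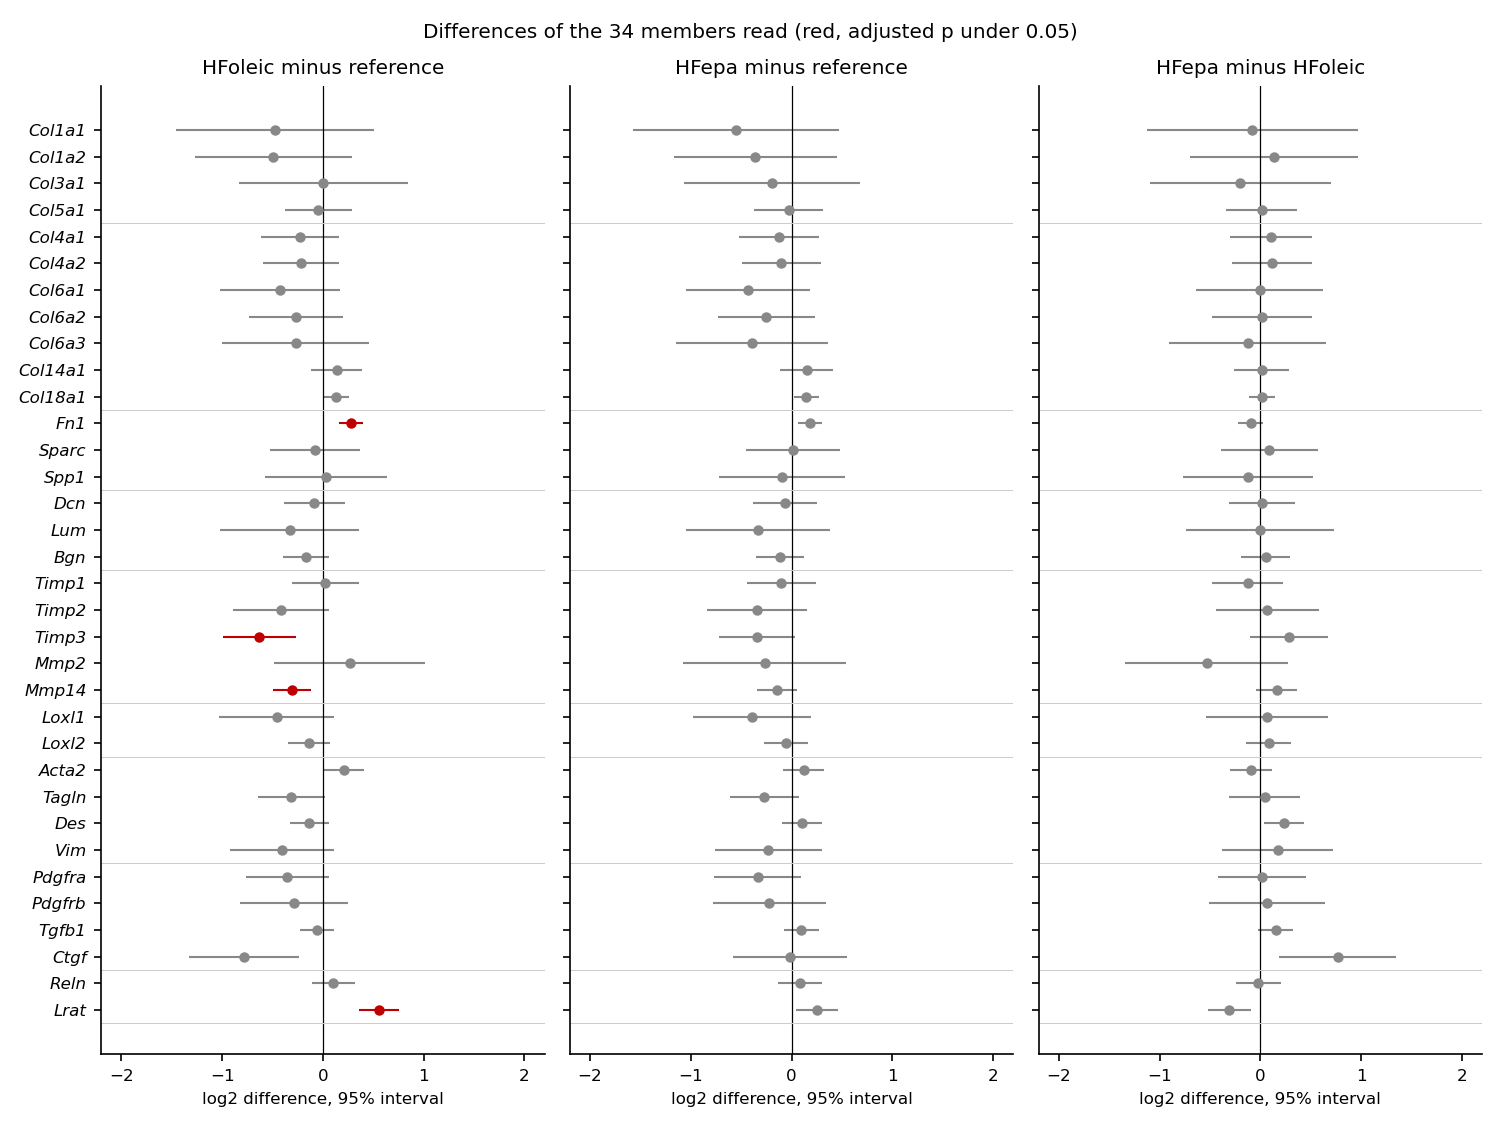
Log2 differences (x axis) with 95% intervals of the 34 genes read, in order of their roles, for HFoleic minus reference, HFepa minus reference and HFepa minus HFoleic. Red points passed an adjusted p under 0.05 in limma. The 4 red points, Fn1, Timp3, Mmp14 and Lrat, are all in the first panel, and the widest interval in each panel is that of Col1a1.

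HFepa minus reference asked how livers of the EPA lineage on the obesogenic diet differed from the low-fat reference. None of the 52 probes was called by limma or by the methods' t-test, where limma called 0.393% of all tested probes, and 5 of the 52 had an unadjusted p under 0.05 (13.5% of all tested probes did). The largest differences above 0 were those of Lrat (0.25, 95% interval 0.05 to 0.46; limma adjusted p = 0.255) and Fn1 (0.18, 0.06 to 0.30; adjusted p = 0.155). The other Fn1 probes gave 0.05, -0.13 and -0.44, the last with a limma adjusted p of 0.130, so the Fn1 probes disagreed in sign. The largest below 0 was that of Col1a1 (-0.55, -1.57 to 0.47; limma adjusted p = 0.694), which was -0.10 without reference replicate 5. The median of the 34 genes was -0.12, with 25 below 0, and 0.03, with 14 below 0, without that liver. Without HFepa replicate 4 the median was -0.20, with 26 below 0, and Col1a1 differed by -0.81. Without both livers the median was -0.01, with 20 below 0, and Col1a1 differed by -0.36. The comparison with HFoleic minus reference shares the reference livers. Timp3 differed by -0.34 and Mmp14 by -0.14 in HFepa, with 7 of 7 and 5 of 7 livers below the reference mean, and by -0.23 and -0.09 without reference replicate 5.

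HFepa minus HFoleic, on the same diet, asked about the lineage. None of the 52 probes was called by limma or by the methods' t-test, nor was any of the 30003 probes (0%), while 5 of the 52 and 9.70% of all tested probes had an unadjusted p under 0.05. Ctgf had the largest difference, 0.77 (SE 0.28; 95% interval 0.18 to 1.35; limma adjusted p = 0.362), and 5 of 7 HFepa livers lay above every HFoleic liver. Lrat differed by -0.31 (95% interval -0.52 to -0.10; limma adjusted p = 0.307), with 3 of 7 HFepa livers below every HFoleic liver. Des differed by 0.24 (95% interval 0.04 to 0.44; limma adjusted p = 0.412), with 7 of 7 HFepa livers above the HFoleic mean. For 30 of the 34 genes the 95% interval lay within 1 log2 unit of 0 on both sides. The 4 exceptions were Col1a1, Col3a1, Mmp2 and Ctgf. The median of the 34 genes was 0.02, with 12 below 0, and -0.01, with 18 below 0, without HFepa replicate 4. Leaving out this liver moved Col1a1 from -0.08 to -0.34 and Col3a1 from -0.20 to -0.40.

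**Figure D4:**
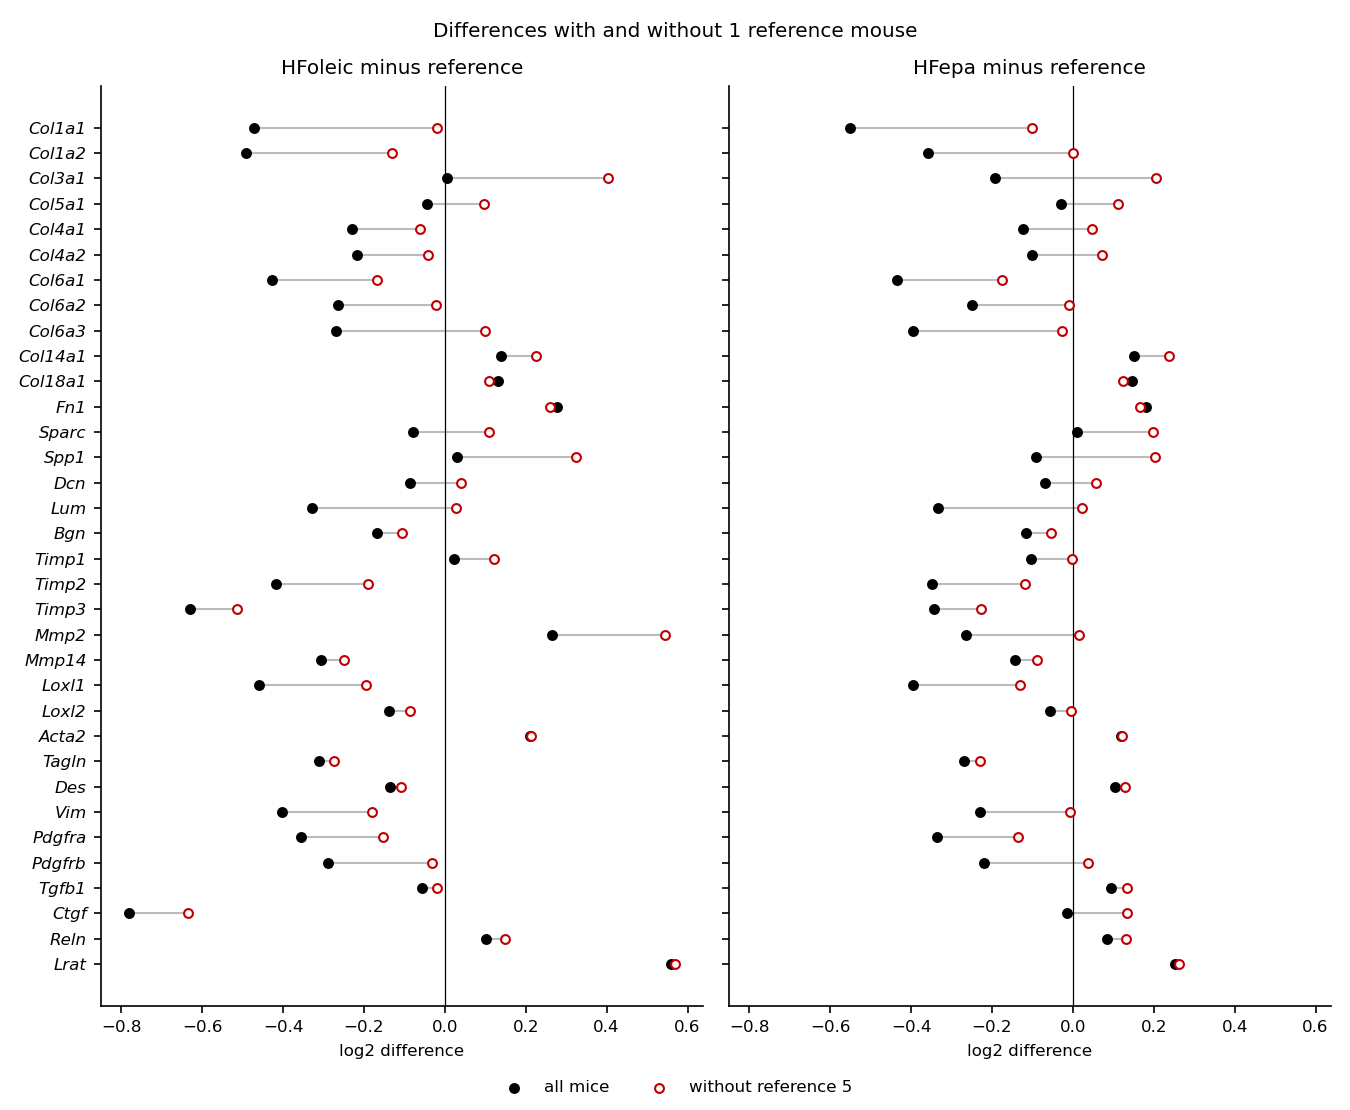
Log2 differences (x axis) of the 34 genes with all mice (black) and without reference replicate 5 (open red), for HFoleic minus reference and HFepa minus reference. Of the 11 collagen points, 10 move to the right in each panel, for example Col1a1 from -0.47 to -0.02 and Col3a1 from 0.00 to 0.40 in HFoleic minus reference, whereas Lrat and Fn1 stay near 0.57 and 0.26.

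With all 24 livers, those that stood apart included, the set varied more between mice of a group than most genes did. The median residual SD of the 34 genes was 0.40 log2 units, against 0.18 for all gene names, and 31 of 34 exceeded that value. It was widest for Col1a1 at 1.05 and narrowest for Fn1 at 0.11. The SD of Col1a1 was 1.56 in reference livers, 0.82 in these without reference replicate 5, and 0.32 in HFoleic livers. The genes also varied together. After group means were subtracted, the correlation of a gene with Col1a1 over 24 mice had a median Pearson's r of 0.82 over the other 33 genes, against -0.04 over all gene names, and r exceeded 0.5 for 24 of 33 (72.7%) against 13.0%. With p-values from permutations of the mice adjusted over 15833 gene names, 23 of 33 passed by r, against 17.2% of all gene names, and 20 by Spearman's rho, against 3.13%. Of these 20, Fn1 passed with a negative rho (-0.61, permutation adjusted p = 0.0498).

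The highest were Col3a1 (r = 0.98, rho = 0.86), Col1a2 (r = 0.98, rho = 0.94), Col6a3 (r = 0.97, rho = 0.87), Col4a1 (r = 0.96, rho = 0.89) and Sparc (r = 0.95, rho = 0.89). Each had the smallest permutation p that 100000 resamples can give, 1e-05, with an adjusted p of 0.000633 by r. Among genes with low values were Acta2, at its brightest probe only (r = 0.16), and Mmp14 (r = 0.16). Col18a1 (r = -0.30) and Fn1 (r = -0.48, permutation p = 0.0109, adjusted p = 0.0579) had negative values. Lrat had r = 0.47 (permutation p = 0.0247, adjusted p = 0.0964) and Timp3 r = 0.78 (permutation p = 6e-05, adjusted p = 0.00192).

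This relation rested in part on the livers that stood apart. Without reference replicate 5 and HFepa replicate 4, the livers farthest from the median of Col1a1, the median r was 0.55, with 20 of 33 above 0.5 against 6.08% of all gene names, and 11 passed the adjusted p, against 1.19% of all gene names. Without reference replicate 4 as well, a choice made after seeing the data, the median r was 0.42, with 10 of 33 above 0.5 against 2.14%, and 1 passed, against 0.0251% of all gene names. In those 21 mice Col3a1 still had r = 0.86, Pdgfrb 0.75, Col1a2 0.74, Col4a1 0.69 and Col6a3 0.69, whereas Timp1 (-0.03), Ctgf (0.16) and Timp3 (0.21) had lower values. Within slides 1, 2 and 3, of 8 mice each, the median r was 0.96, 0.20 and 0.79. Reference replicate 5 was on slide 1, reference replicate 4 and HFepa replicate 4 were on slide 3, and slide 2 held none of these livers.

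**Figure D5:**
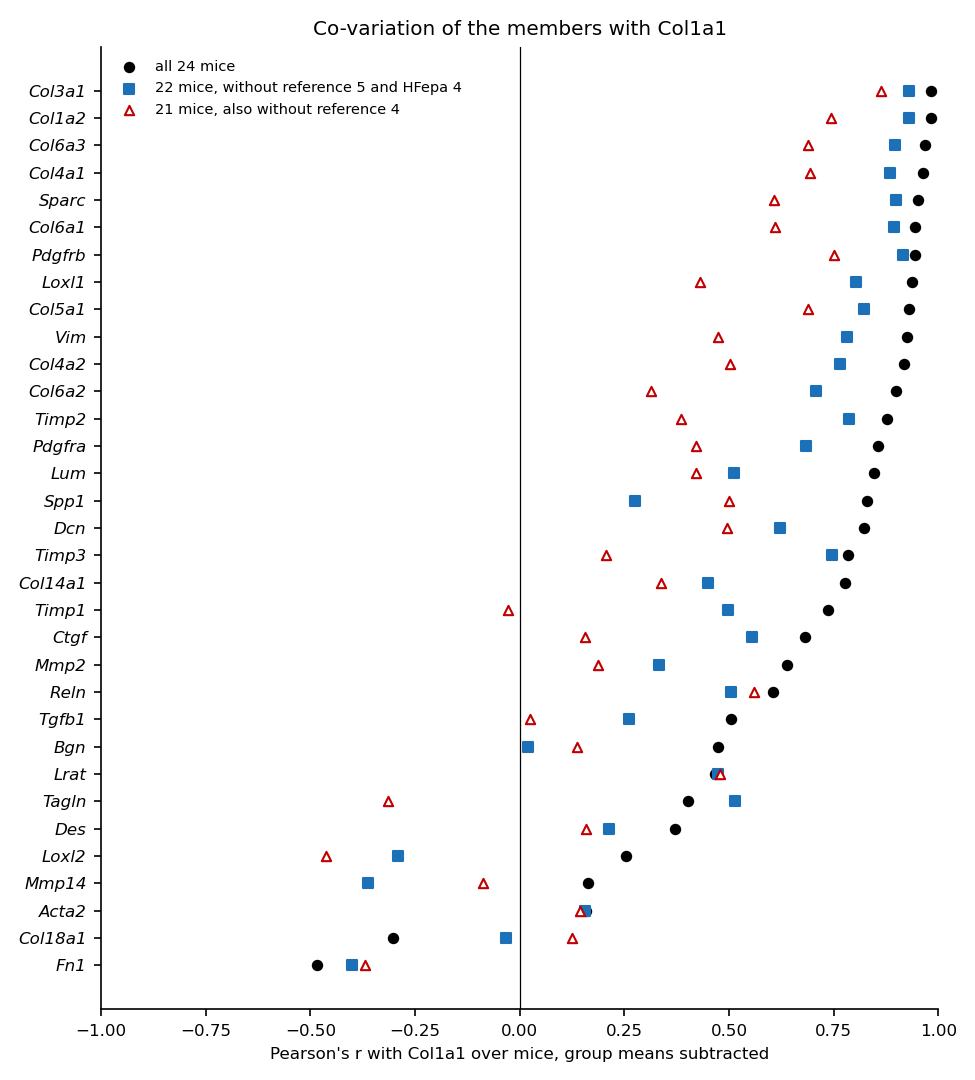
Pearson's r with Col1a1 (x axis) over mice after subtraction of group means, for the other 33 genes, with all 24 mice, with 22 mice (without reference replicate 5 and HFepa replicate 4) and with 21 mice (without reference replicate 4 too). Col3a1 stays at 0.86 or more in the 3 sets, while most other genes move toward 0 as mice are left out.

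Other genes of matrix biology were taken from lists drawn up with earlier results known. Of 85 genes in 6 lists, 73 were read, and 2 rose and 2 fell in HFoleic minus reference (5.48%, against 8.91% of all gene names), with a median difference of -0.07. Of 15 collagen processing genes read, P4ha2, a catalytic subunit of prolyl 4-hydroxylase, rose by 0.52 (SE 0.12; limma adjusted p = 0.0101), from a log2 signal of 8.29 ± 0.28 (SD, n = 9) to 8.80 ± 0.24 (SD, n = 8). It also rose in HFepa minus reference (0.56, limma adjusted p = 0.0473), as did P4ha1, the other main catalytic subunit (0.62, adjusted p = 0.0245), for which HFoleic minus reference gave 0.24 (adjusted p = 0.191). With Agt these were the 3 of 73 genes called in HFepa minus reference (4.11%, against 0.424% of all gene names).

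Agt, angiotensinogen, rose in both comparisons with the reference (0.21, limma adjusted p = 0.0106, and 0.23, adjusted p = 0.0486) and was the 1 gene called of 8 read in the ligand list. In HFoleic minus reference, Skil, a repressor of Smad signalling, fell by 0.36 (limma adjusted p = 0.0413), 1 of 18 genes of transforming growth factor beta signalling, and Nid2, a basement membrane linker, fell by 0.59 (adjusted p = 0.0269), 1 of 16 basement membrane and elastic fibre genes. None of the 11 matrix receptors or the 5 proteases read was called in any comparison. In HFepa minus HFoleic 0 of the 73 genes were called by limma.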

How the data were processed

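Liver RNA of 24 mice was hybridised to Agilent mouse arrays in 1 colour. Per the file headers, the deposited scanner text files (Agilent Feature Extraction 10.10.1.1) hold median and mean signals and processed signals as intensity values without normalization between arrays, and marks of outlier spots and of spots well above background as 0 or 1. A further deposited table holds log2 values that the authors had filtered and quantile normalized. Against the scanner's log2 values of the same mouse, every column had a correlation of at least 0.9997. Its filter is not given in the sources used here. Groups and replicate numbers, 1 per mouse, came from the labels, and the number of arrays limits the precision.

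The log2 median signal of non-control spots was averaged by probe without outlier spots, which left 56605 probes. A probe was kept where 75% or more of the arrays in any group marked it as well above background (30003 probes), followed by quantile normalization. Mean differences between groups were fitted with limma 3.58.1 (R 4.3.3; lmFit and eBayes, group means of all 24 arrays, two-sided), and p-values were adjusted by Benjamini-Hochberg over all tested probes within a comparison and called under 0.05. Intervals are 95%. On simulated data for HFoleic minus reference (30003 probes), 78 of 100 changes of 0.5 and 98 of 100 changes of 1 log2 unit were recovered, with 7 false calls. The changed probes were drawn at random from all tested probes, each with its own residual SD. These rates are thus not those of the present set, whose median residual SD was 0.40, against 0.18 for all gene names. Gene names and mm9 coordinates were those of the scanner files. Promoters were matched by symbol for the 34 genes read, of which 23 had an entry.

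The genes and the lists were chosen with earlier results of these data known. Named with values were the called genes, the gene with the largest difference in each role, and Col1a1, Col1a2, Col3a1, Timp1, Acta2, Spp1 and Lrat. Co-variation with Col1a1 used permutations of the mice (100000, two-sided), adjusted over 15833 gene names, where the plan had been to adjust over the set alone. Python 3.11.15, numpy 2.4.6, pandas 2.3.3, scipy 1.17.1, matplotlib 3.10.9 and data.table (1.17.8) were used. Alternatives were the deposited table, normexp correction (offset 50), the processed signal scaled to the 75th percentile, median scaling, other filters on dim probes, slide, slide row or replicate number as a block, array weights, the methods' t-test, the mean over a gene's probes, fits of only the groups compared, and each array left out. Same-numbered mice of different groups did not deviate together (22 pairs, mean r -0.0035, range -0.298 to 0.348), so the numbers were not treated as pairs.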

Additional observations from a re-analysis of the deposited data

Results flagged for a closer look

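The following single livers lay far from the rest of their group, judged by the gap to the nearest liver over the range of the group. Of 102 groups examined (34 genes in 3 groups), 15 held such a liver, where chance gives about 1 in 20. All 15 were in reference replicate 5, HFepa replicate 4 or HFoleic replicate 1, and the genes varied together over mice. The 102 groups are thus not independent, and the count cannot be weighed against that rate. Reference replicate 5 was the one in 8 of them, with log2 signals of 12.41 for Col3a1 (next reference liver 10.15), 10.04 for Col4a2 (9.12), 8.27 for Col6a2 (6.71), 11.25 for Col6a3 (8.98), 8.09 for Mmp2 (6.54), 9.65 for Pdgfra (8.43), 11.94 for Lum (9.22) and 13.26 for Spp1 (11.21). HFepa replicate 4 was the one in 4, with 8.55 for Col1a1 (next HFepa liver 7.18), 10.63 for Col1a2 (9.53), 8.76 for Col6a3 (7.93) and 13.88 for Sparc (13.37). HFoleic replicate 1 was the lowest in 3, with 8.74 for Col1a2 (next HFoleic liver 9.31), 8.64 for Col6a1 (8.92) and 7.43 for Lrat (7.77). The cause was not tested.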

How the results depend on the processing

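Over the 102 gene differences and 38 alternatives each, less 3 genes not kept by the strictest filter on dim probes, 3841 of 3867 values stayed on the same side of the threshold, 160 uncalled values changed sign and 0 called differences reversed. Of the 4 called genes, Lrat kept its call throughout, from 0.49 to 0.70 log2 units. The 5 probes called in HFoleic minus reference became 2 with no filter on dim probes, 2 with the methods' t-test and 2 when only the 2 groups compared were fitted, and in each case those were probes of Lrat and Fn1. Leaving out 1 mouse gave 2 to 6 called probes, with 2 without HFoleic replicate 1 or replicate 8 and 3 without reference replicate 1. In HFepa minus reference and HFepa minus HFoleic 0 probes were called by limma or by the methods' t-test in the alternatives run, the leave-outs included. The count of genes that passed with Col1a1 was 23, and 1 to 11 when livers that stood apart were left out. With the replicate number as a block 5, 0 and 0 probes were called in the 3 comparisons, and this block changed no call of a gene. Timp3 was also lost with no filter on dim probes (limma adjusted p = 0.0546), the methods' t-test and only the groups compared (limma adjusted p = 0.0650), and Mmp14 with normexp correction (-0.26, limma adjusted p = 0.0586). The cause of these changes was not tested. Signals near background limit the values of Col6a2, Mmp2 and Des, which were not well above background on every array.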

Other observations

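Several other lists were high in reference replicate 5, and those given here were chosen after their values were seen. The protease list was not among them, at 8.93 against 8.41 to 9.03. The mean log2 level of 18 genes of transforming growth factor beta signalling was 9.49 there, against 8.54 to 8.88 in the 21 livers other than reference replicates 4 and 5 and HFepa replicate 4, and 11 of the 18 genes were highest of all 24 livers in it. Basement membrane and elastic fibre genes gave 8.93 against 7.60 to 7.98, with 11 of 16 highest in this liver, and matrix receptors 9.58 against 8.82 to 9.12, with 7 of 11. Reference replicate 4 and HFepa replicate 4 also exceeded these ranges. Their levels were 9.18 and 8.91 in the first list, 8.37 and 8.06 in the second and 9.15 and 9.17 in the third. Reference replicate 4 was the highest of 24 livers for the 3 red blood cell markers (mean level 13.87 against 12.57 to 13.66) and for 2 of 4 adipocyte markers read (8.92 against 6.57 to 8.35). How these lists bear on the collagen values of these livers was not tested.

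Kupffer cell markers, genes of the resident liver macrophages, were above 0 in HFoleic minus reference for 9 of 10 genes, with a median of 0.17, and in HFepa minus reference for 10 of 10, with a median of 0.25. These comparisons share the reference livers, and the lowest limma adjusted p among the 10 genes was 0.111 (Timd4, 0.49) in the former and 0.382 (Clec4f, 0.25) in the latter. Their mean level overlapped between the groups, from 9.94 to 11.08 in reference livers, 10.20 to 11.14 in HFoleic and 10.49 to 11.28 in HFepa. The level of 11.28 was that of HFepa replicate 4. In HFepa minus reference, sinusoidal endothelium markers were also above 0 for 10 of 10 genes (median 0.18) and stellate cell markers for 9 of 11. Smooth muscle and portal fibroblast markers were above 0 for 2 of 7, bile duct markers for 2 of 4 and hepatocyte markers for 2 of 5.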
